A study of Homo sapiens with 7 samples.

Results

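The genes described here are 40 genes of the spindle checkpoint, the kinetochore and the mitotic kinases, together with the anaphase-promoting complex, its targets and the spindle motors. They were chosen by name, as the non-control spots that carry 1 of the 40 symbols, out of 36337 gene names on the array. All 40 were found, on 60 probes, and all 40 counted as detected, that is, at least 1 of their probes was well above background on each of the 4 arrays. By the same rule 54.2% of all gene names were detected.

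Labelled RNA (Cy3) of 4 replicate samples of HCT116 H2B-GFP was hybridised to Agilent arrays, 1 sample per array, and each sample had been exposed to bafilomycin A1 at 10 nM for 30 h. HCT116 is an established human colon carcinoma line, labelled diploid, and H2B-GFP is a histone fused to a green fluorescent protein, carried by every sample used here. Bafilomycin A1 inhibits the vacuolar proton pump and thereby lysosomal acidification and the last step of autophagy. The medium was DMEM with 10% FBS, the incubator held 5% CO2, and 100 ng of total RNA entered the labelling reaction. The 3 untreated samples of the line were not analysed here, so the values say how the 40 genes vary among treated samples and nothing of what bafilomycin A1 does to them. The labels number the replicates and do not say that they came from separate cultures, so the spread between them may be technical. Of 7 epithelial markers, 7 were detected. Of genes that mark other cell types, COL1A2, COL3A1, DCN and PECAM1 were not detected, while PTPRC, CD3E, CD14, COL1A1, CDH5 and VWF were.

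These genes act in a cycle. As cells enter mitosis, kinetochores assemble on centromeres and capture spindle microtubules through the NDC80 complex. Kinetochores without microtubules recruit MAD and BUB proteins, which hold back the anaphase-promoting complex and its activator CDC20, and once that brake is released, securin and cyclin B are destroyed and the chromatids part. Most of these genes are transcribed mainly in G2 and mitosis, so their RNA level in a culture is widely used as a measure of how many cells are dividing, and many of their promoters hold a cell cycle gene homology region (CHR) near a CCAAT box.

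The array reads each gene with 60-base probes, and 57 of the 60 probes were well above background on all 4 arrays. The 57 gave background-subtracted signals between 24.8 and 18653, and no spot was saturated. The probes of genes on which the results turn are printed as an identity for the values that follow. They are BUB1, TTK, NUF2, TPX2 and KIF20A, which shared 1 order of the arrays (lowest on replicate 1, highest on replicate 3), and AURKB, MAD1L1 and PLK1, which departed from it. Coordinates are those of GRCh37 in the files, and a position longer than 60 bases means that the probe crosses an exon junction, as 10 of the 60 probes did. Of PLK1, both probes are shown because they differed.
BUB1 probe, chr2:111395699-111397340, minus strand: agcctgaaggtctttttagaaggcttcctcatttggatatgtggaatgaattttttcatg
TTK probe, chr6:80749430-80749489, plus strand: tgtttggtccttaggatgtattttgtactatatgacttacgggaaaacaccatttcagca
NUF2 probe, chr1:163325144-163325203, plus strand: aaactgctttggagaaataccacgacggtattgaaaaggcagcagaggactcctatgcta
TPX2 probe, chr20:30388973-30389032, plus strand: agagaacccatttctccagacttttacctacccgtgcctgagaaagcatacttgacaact
KIF20A probe, chr5:137522081-137522804, plus strand: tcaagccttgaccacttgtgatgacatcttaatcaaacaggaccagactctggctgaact
AURKB probe, chr17:8110655-8110917, minus strand: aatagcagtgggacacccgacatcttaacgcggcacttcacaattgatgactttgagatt
MAD1L1 probe A, chr7:1855781-1855840, minus strand: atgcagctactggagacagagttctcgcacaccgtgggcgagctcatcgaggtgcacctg
MAD1L1 probe B, chr7:1937937-1937996, minus strand: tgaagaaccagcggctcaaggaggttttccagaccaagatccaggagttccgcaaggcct
PLK1 probe A, chr16:23700970-23701212, plus strand: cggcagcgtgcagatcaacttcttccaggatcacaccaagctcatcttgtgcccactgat
PLK1 probe B, chr16:23692251-23692310, plus strand: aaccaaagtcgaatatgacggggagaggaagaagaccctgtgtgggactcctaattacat

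A level is given as log2 of the background-subtracted signal relative to the median of its array. That median was taken over probes with a signal above 0, so a level of 0 lies above the median of all probes. Levels can be compared between arrays for a gene but not between genes, since probes differ in how well they hybridise. The 40 genes moved together from sample to sample. Replicate 1 held the lowest value of the 4 in 31 of the 40 genes, and replicate 3 the highest in 30. Among all detected genes, 27.5% were lowest on replicate 1 and 48.4% highest on replicate 3, so replicate 3 was also high in general. Both at once held in 28 of the 40 genes, against 21.5% of all detected genes. Replicate 2 was highest in 9 of the other 10 (25.4% of all detected genes), and replicate 1 only in ANAPC1. The ANAPC1 median takes in 1 probe that was well above background on 0 of the 4 arrays.

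**Figure D1:**
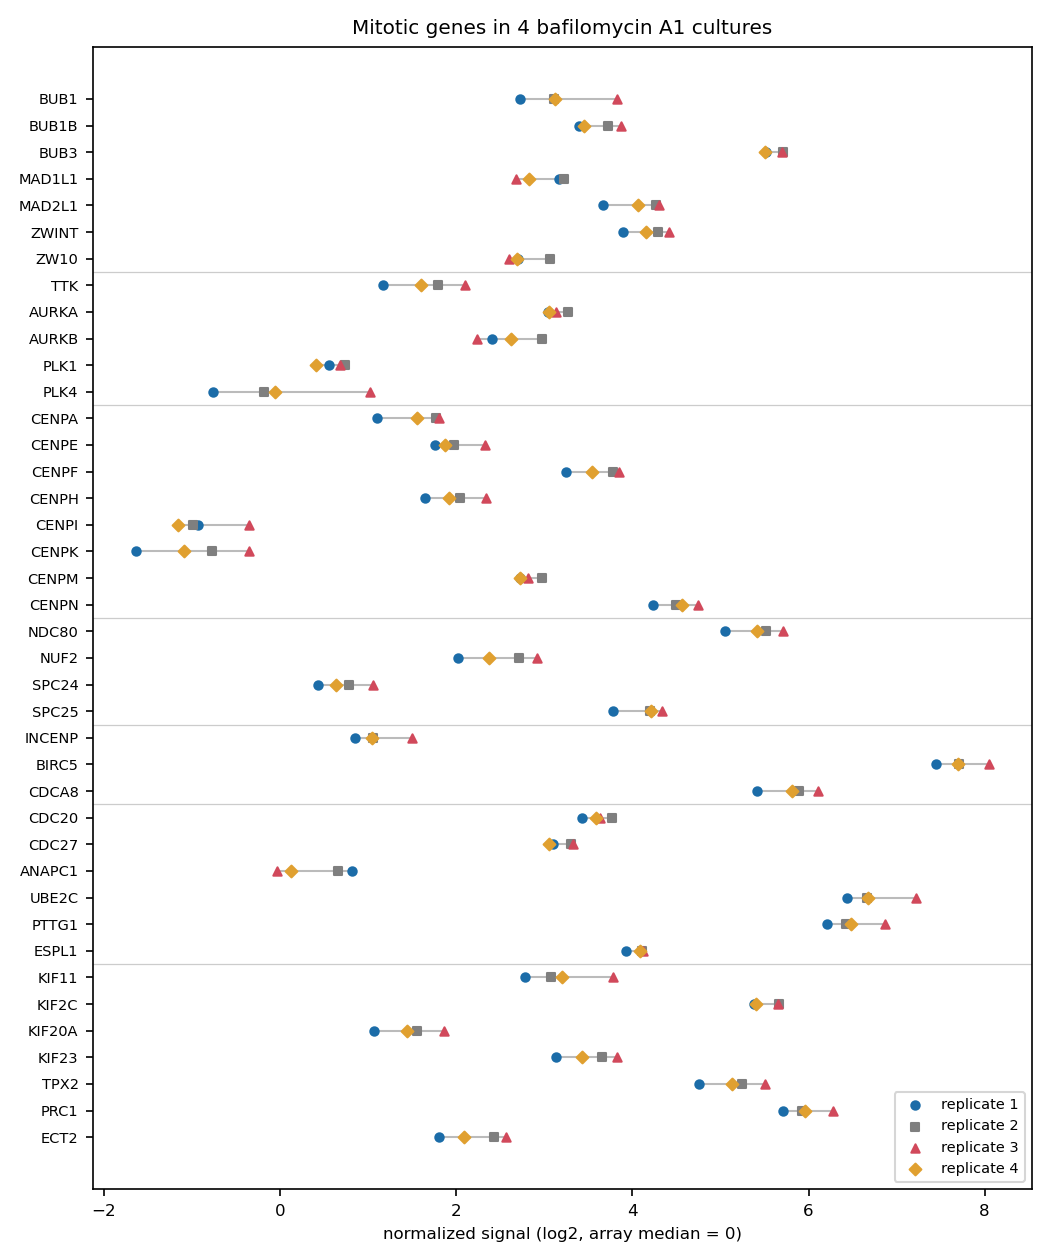
Level of each of the 40 genes on the 4 arrays (x axis, log2 relative to the array median), 1 row per gene, grouped by role and with a line from the lowest to the highest array. The replicate 1 points lie at the left end of 31 rows and the replicate 3 points at the right end of 30, and rows are not comparable with each other.

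Averaged over the 40 genes, the deviation from each gene's own 4-array mean was negative on replicate 1 (-0.27 in log2) and replicate 4 (-0.07) and positive on the other two, at 0.09 for replicate 2 and 0.25 for replicate 3. The median gene of all detected genes deviated by -0.03, 0.03, 0.10 and -0.10 on the same arrays. Set against the mean of the other 3, replicate 1 was lower in 38 of 40 genes, by a median of -0.39 on the log2 scale or 1.31-fold, and the median over all detected genes was -0.04. The 5th and 95th percentiles over all detected genes were -0.49 and 0.54. The exceptions were MAD1L1 and ANAPC1, at 0.26 and 0.56. The size of the shift was modest. Of the 40 genes, 30 spanned more than 1.4-fold between their lowest and highest array, as did 45.6% of all detected genes, and the median SD was 0.28 against 0.21. This excess rested on replicate 1: without it 11 of the 40 genes spanned more than 1.4-fold, a smaller share than the 36.7% of all detected genes, and the median SD was 0.21 for both. Without replicate 3 the count was 13, against 21.6% of all detected genes. In no gene did 1 array stand apart from the other 3 (0 of 40 with a Dixon ratio above the 95% critical value for 4 values, against 7.94% of detected genes), that is, the values were spread along a range in which replicates 2 and 4 mostly filled the middle. This count depended on the scale, and with quantile normalization it was 5 of 40, against 1198 of 19689 detected genes.

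**Figure D2:**
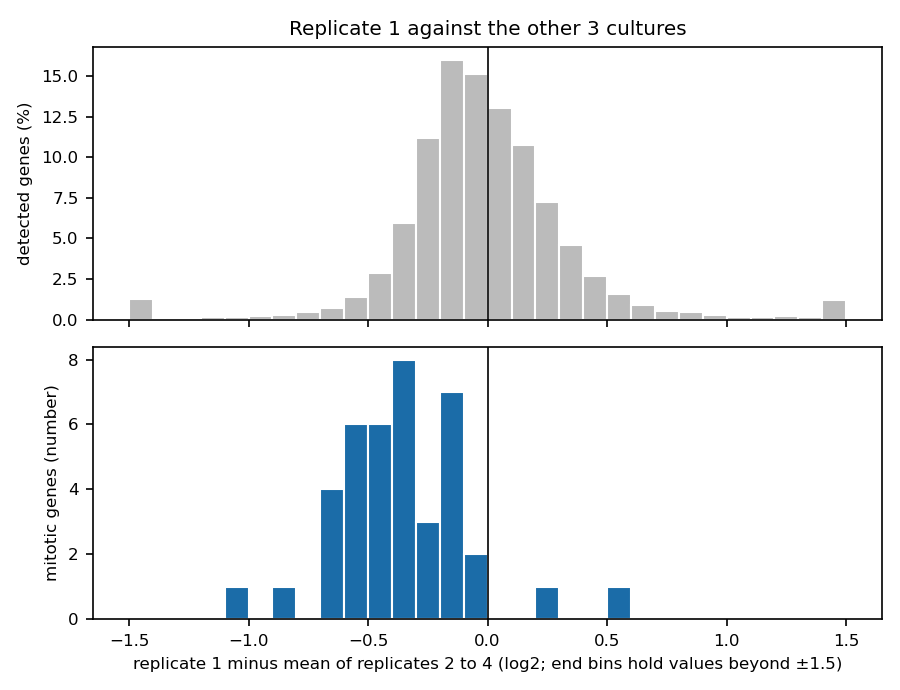
Distribution of the level on replicate 1 minus the mean of replicates 2 to 4 (x axis, log2), as a percent of all 19689 detected genes above and as a number of the 40 mitotic genes under it. All genes centre near 0, with a median of -0.04, and 38 of the 40 mitotic genes lie left of 0, with a median of -0.39.

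The level depends on how the arrays are put on a common scale. With normexp background correction and quantile normalization, which gives every array the same distribution, the 40 genes were still lowest on replicate 1 in 30 cases, against 25.9% of all detected genes, and highest on replicate 3 in 26, against 36.1%. Their mean deviations were then -0.17, 0.04, 0.10 and 0.03, smaller in size on every array and of the other sign on replicate 4. The spread of all detected genes shrank too, from a median SD of 0.21 to 0.11. The number that spanned more than 1.4-fold was 10 in place of 30, against 14.1% of all detected genes. Of the 31 genes lowest on replicate 1, 28 were so under quantile normalization too, and 26 under every setting that used all 4 arrays. Without replicate 3, replicate 1 was the lowest of the remaining 3 in 32 of 40 genes, against 30.9% of all detected genes. No test of chance is given for this order, because genes that move together within a sample are not independent replicates of that sample.

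**Figure D3:**
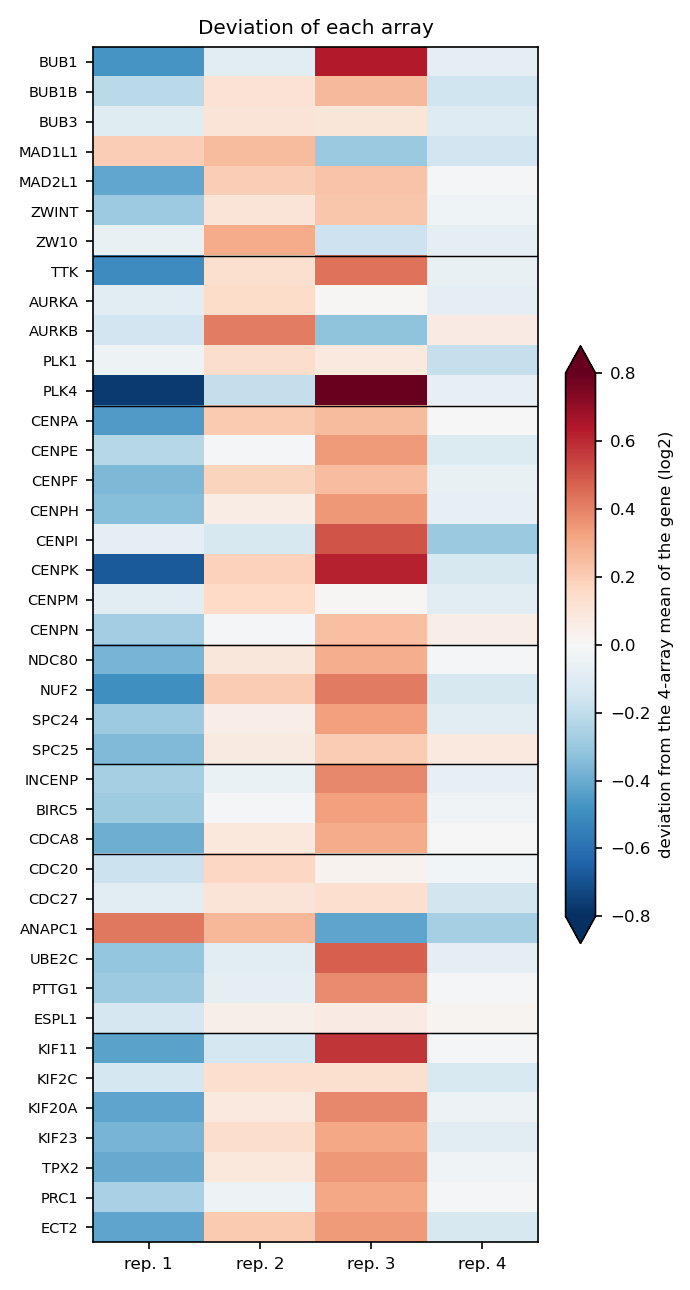
Deviation of each array (columns, replicates 1 to 4) from the 4-array mean of each gene (rows, grouped by role), in log2 from blue (lower) to red (higher). The replicate 1 column is blue in 38 of 40 rows, with MAD1L1 and ANAPC1 red, and the replicate 3 column is red in 36 of 40.

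The 7 checkpoint proteins were mixed, with 4 lowest on replicate 1 and 4 highest on replicate 3. BUB1, the kinase that brings other checkpoint proteins to the kinetochore, had levels of 2.72, 3.11, 3.83 and 3.12 on replicates 1 to 4, a span of 2.16-fold (SD 0.46). BUB1B, which encodes BubR1 of the inhibitor of the anaphase-promoting complex, had 3.39, 3.73, 3.87 and 3.45, and MAD2L1, the MAD2 protein that binds CDC20, had 3.66, 4.27, 4.30 and 4.07. All 3 were lowest on replicate 1 and highest on replicate 3, but BUB1B did so with a span of only 1.39-fold and with replicates 1 and 4 close together. ZWINT, a kinetochore adaptor, followed the same order at a mean of 4.19 ± 0.22 (SD, n = 4). BUB3, the partner of both BUB kinases, was almost level at 5.51, 5.71, 5.70 and 5.50, with a span of 1.16-fold. MAD1L1, which holds MAD2 at the kinetochore, ran the other way: its levels of 3.17, 3.23, 2.68 and 2.82 were high on replicates 1 and 2 and low on 3 and 4. ZW10, which recruits dynein and also serves in vesicle traffic outside mitosis, was highest on replicate 2 and had a mean of 2.76 ± 0.20.

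The mitotic kinases included the gene with the largest spread and one with nearly the smallest. PLK4, the kinase that licenses centriole duplication, had levels of -0.76, -0.18, 1.02 and -0.06, a span of 3.44-fold (SD 0.74). Its lowest value was on replicate 1 and its highest on replicate 3, and under quantile normalization the span was 1.96-fold. TTK, the checkpoint kinase MPS1, had 1.17, 1.80, 2.10 and 1.61 in the same order, a span of 1.91-fold. AURKA, which acts at the spindle poles, stood at 3.04, 3.27, 3.13 and 3.05 (SD 0.11, a span of 1.17-fold), so it hardly differed between the samples. AURKB, the kinase of the chromosomal passenger complex, had 2.41, 2.97, 2.24 and 2.63, with replicate 2 high and replicate 3 the lowest of the 4. PLK1, which acts from mitotic entry to cytokinesis, had 0.56, 0.74, 0.68 and 0.41, a span of 1.25-fold, as the median of probes that went different ways. When spots with an outlying local background were also left out, PLK1 lost a probe on replicate 3 and its span was 2.55-fold.

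Of the 8 centromere proteins, 6 were lowest on replicate 1 and 7 highest on replicate 3. CENPA, the histone that marks the centromere, had levels of 1.10, 1.77, 1.81 and 1.55, so replicates 2 and 3 lay together above 4 and 1. CENPE, the kinesin that brings chromosomes to the metaphase plate, had 1.75, 1.97, 2.32 and 1.87, and CENPF, a large protein of the outer kinetochore, had 3.24, 3.78, 3.85 and 3.54. CENPK, a subunit of the constitutive centromere complex, had the second largest spread of the 40 at -1.64, -0.78, -0.35 and -1.09 (SD 0.54, a span of 2.44-fold, or 1.38-fold under quantile normalization). The other subunits of that complex had means of 1.99 ± 0.29 for CENPH, -0.86 ± 0.35 for CENPI, 4.51 ± 0.21 for CENPN and 2.81 ± 0.12 for CENPM. CENPH and CENPN followed the shared order (CENPN with a span of 1.43-fold, but 5.91-fold with 1 probe fewer on replicate 3, where outlying local backgrounds were also left out), CENPI was high on replicate 3 alone, and CENPM, at 2.73, 2.97, 2.82 and 2.73, was nearly level. The CENPI median was the value of 1 of its 3 probes on every array. Another was almost level, with a span of 1.16-fold and its highest value on replicate 2. The remaining probe was lowest on replicate 3 and well above background on only 2 arrays.

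In the NDC80 complex, which binds microtubules, 4 of 4 subunits were lowest on replicate 1 and highest on replicate 3. Under quantile normalization 4 were lowest on replicate 1 and 3 highest on replicate 3. In SPC24 only a dim probe (signals of 27.5 to 70.7) had this order, and its brighter probe (298 to 416) was lowest on replicate 3. NDC80 had levels of 5.05, 5.52, 5.71 and 5.42, a span of 1.58-fold. NUF2, its coiled-coil partner, had 2.02, 2.71, 2.92 and 2.38, a span of 1.87-fold, and the smaller subunits SPC24 and SPC25 had means of 0.72 ± 0.26 and 4.13 ± 0.24. The mean deviation of the 4 genes was -0.38 on replicate 1 and 0.31 on replicate 3.

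All 3 chromosomal passenger subunits, which place Aurora B at the inner centromere, kept the shared order as well, although AURKB itself did not. BIRC5, the survivin subunit, had levels of 7.44, 7.71, 8.05 and 7.70. The scaffold INCENP had a mean of 1.11 ± 0.27 and CDCA8, the borealin subunit, a mean of 5.81 ± 0.29.

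The anaphase-promoting complex and its targets had mean deviations of -0.10 on replicate 1 and 0.11 on replicate 3, in which ANAPC1, with 0.42 and -0.42, ran against the other 5 genes. UBE2C, the ubiquitin-conjugating enzyme that serves the complex, had levels of 6.44, 6.66, 7.23 and 6.68, a span of 1.72-fold, and PTTG1, the securin that it destroys, had 6.21, 6.42, 6.87 and 6.48, a span of 1.58-fold. Both had their highest value on replicate 3 with the other 3 arrays closer to each other. The activator CDC20 changed little, at 3.43, 3.77, 3.63 and 3.58 (SD 0.14), and the protease separase, ESPL1, had the smallest spread of all 40 at 3.93, 4.11, 4.12 and 4.08 (SD 0.09, a span of 1.15-fold). Both were still lowest on replicate 1. Of the core subunits of the complex, CDC27 had a mean of 3.20 ± 0.14 (a span of 1.21-fold, but 5.09-fold where a probe was lost on replicate 3 with the outlying local backgrounds). ANAPC1 was highest on replicate 1 at 0.81, 0.66, -0.03 and 0.13 (SD 0.41). That median takes in 1 of its 7 probes that was well above background on 0 of the 4 arrays. Its other probes disagreed, and the brightest, at 5.19, 5.40, 5.43 and 5.26, was lowest on replicate 1 and highest on replicate 3.

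The 7 genes of spindle motors, spindle assembly and cytokinesis were all lowest on replicate 1, and 6 were highest on replicate 3. KIF11, the motor that pushes the spindle poles apart, had levels of 2.78, 3.07, 3.78 and 3.20, a span of 2.01-fold (SD 0.42), and TPX2, which activates Aurora A and nucleates microtubules, had 4.76, 5.25, 5.51 and 5.13, a span of 1.69-fold. In both, replicates 2 and 4 lay between replicates 1 and 3, and in KIF11 replicate 3 was well above the other 3 arrays. The kinesins of the central spindle had means of 1.48 ± 0.33 for KIF20A and 3.51 ± 0.30 for KIF23, and the microtubule bundler PRC1 and the RhoA activator ECT2 had 5.97 ± 0.23 and 2.22 ± 0.34. KIF2C, which depolymerises microtubules at centromeres, was the exception on replicate 3, since replicates 2 and 3 were level there and its mean was 5.53 ± 0.15. The mean deviation of the 7 genes was -0.35 on replicate 1 and 0.34 on replicate 3, and under quantile normalization -0.25 and 0.18.

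Within an array the probes of 5 genes were printed as 10 spots each, which shows the technical error of a spot beside the difference between samples. For KIF20A the SD between the 4 arrays was 0.33, against a median SD of 0.13 among its spots on 1 array. The same figures were 0.29 and 0.16 for CENPH, 0.27 and 0.18 for INCENP, 0.25 and 0.15 for BIRC5, and 0.24 and 0.13 for CENPE. The SD between arrays was therefore 1.55 to 2.51 times the SD of single spots in the 5 genes. Each array value is a mean over spots, and the spot error of such a mean is smaller than that of a single spot. Spots of an array share its RNA, its labelling and its scale, so they measure none of the error of those steps.

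**Figure D4:**
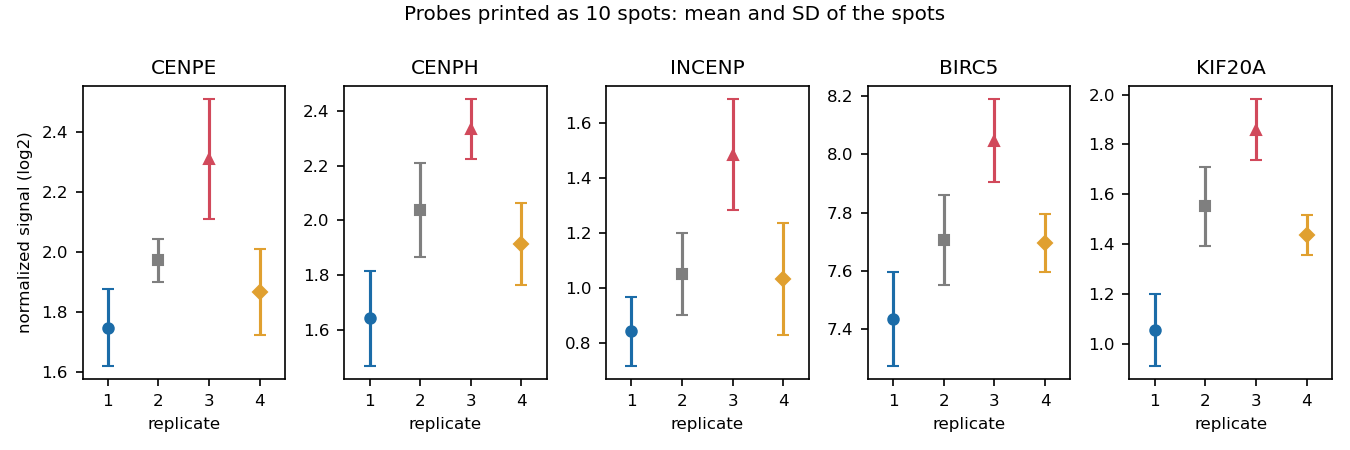
Mean and SD (bars) over the spots of the probes printed as 10 spots, on each array (x axis, replicate number; y axis, log2 relative to the array median, with a separate range for each gene). In all 5 genes replicate 1 has the lowest and replicate 3 the highest mean.

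For 28 genes 1 probe carries the value, and 12 genes have several. Counted by probe, 41 of the 57 well-measured probes (71.9%) were lowest on replicate 1, against 28.4% of all probes well above background on every array. In ZWINT, CENPF, CENPN and KIF23 every such probe was lowest on replicate 1, in MAD1L1 and CENPI none was, and in the other 6 genes the probes disagreed. The PLK1 probe that crosses a junction had levels of 1.42, 1.55, 1.76 and 1.47, with the shared order, and the other PLK1 probe had -0.30, -0.07, -0.40 and -0.64, highest on replicate 2 and lowest on replicate 4. One BUB3 probe had 5.40, 5.47, 5.98 and 5.44 and the other 5.63, 5.96, 5.42 and 5.57, so the flat median of BUB3 joins a probe that was highest on replicate 3 and a probe that was lowest there. Of the SPC24 probes, one had -1.49, -1.01, 0.01 and -0.97, with the shared order, and the other 2.36, 2.57, 2.09 and 2.23, lowest on replicate 3. Of the 6 well-measured ANAPC1 probes replicates 1, 3 and 4 were each the lowest for 2, and the annotation pairs 1 probe also with the pseudogene ANAPC1P1 and 1 with ANAPC1P2, so its order is uncertain.

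Probe composition moved with the order of the arrays and is given beside it. Of all probes well above background, 44.7% of those with less than 40% G and C were lowest on replicate 1, then 28.7% of those from 40% to under 50%, and 10.8% of those from 50% upward. The probes of the mitotic genes had a median of 42.5% G and C, against 45% for all such probes. In the same classes 16 of 20, 21 of 30 and 4 of 7 probes of the mitotic genes were lowest on replicate 1, so their share was above that of all probes in each class. Replicate 3 was the highest for 73.7%, 50.1% and 26.9% of all probes, and for 17 of 20, 18 of 30 and 3 of 7 probes of the mitotic genes. With quantile normalization the shares lowest on replicate 1 were 42.7%, 25.8% and 8.39% of all probes, against 15 of 20, 20 of 30 and 2 of 7. Both MAD1L1 probes, at 60% and 55%, and the SPC24 probe with the shared order, at 55%, lie in the last class. The part that probe composition, RNA quality or labelling has in the order was not tested beyond these classes.

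Other genes of the cell cycle are set beside the 40, on lists made by function. These lists were made with earlier results of these data known, so they are a description and no independent support. Of all detected genes, 27.5% were lowest on replicate 1 and 48.4% highest on replicate 3. Of 34 detected genes of G2 and mitosis outside the 40, 25 were lowest on replicate 1 and 24 highest on replicate 3, with mean deviations of -0.24 and 0.21. CDK1, the kinase that drives mitosis, had 4.55, 5.03, 5.23 and 4.89, its cyclin CCNB1 had 3.75, 3.88, 4.20 and 3.92, and the topoisomerase TOP2A had 2.17, 2.74, 2.68 and 2.48. FOXM1, a transcription factor of G2 genes, had 3.44, 3.82, 3.66 and 3.69, lowest on replicate 1 but highest on replicate 2. The largest spreads on that list were those of CKAP2 (SD 0.62), ANLN (SD 0.52) and KIF14 (SD 0.50), and KIF18B was not detected. Of 25 other kinetochore genes, 16 were lowest on replicate 1 and 16 highest on replicate 3. The wide spreads of SGOL2 (SD 1.76) and CASC5 (SD 1.48) on that list came with their lowest value on replicate 4, and CENPQ (SD 0.34) was next. Of 20 other anaphase and cohesin genes 12 were lowest on replicate 1 and 15 highest on replicate 3, with mean deviations of only -0.11 and 0.16 and with STAG1 (SD 0.39), ANAPC7 (SD 0.35) and FBXO5 (SD 0.34) the most variable. Of 19 genes of the start of DNA replication, 15 were lowest on replicate 1 and 11 highest on replicate 3, with mean deviations of -0.19 and 0.13. RRM2 and PCNA (SD 0.33 and 0.27) followed the order of the mitotic genes, and MCM7 (SD 0.35) was highest on replicate 2 and lowest on replicate 3. Under quantile normalization the 4 lists, in the order given, had 21, 18, 9 and 14 genes lowest on replicate 1 (25.9% of all detected genes). They had 18, 11, 10 and 7 highest on replicate 3 (36.1%). The mean deviations of the last list were then -0.10 on replicate 1 and -0.02 on replicate 3.

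**Figure D5:**
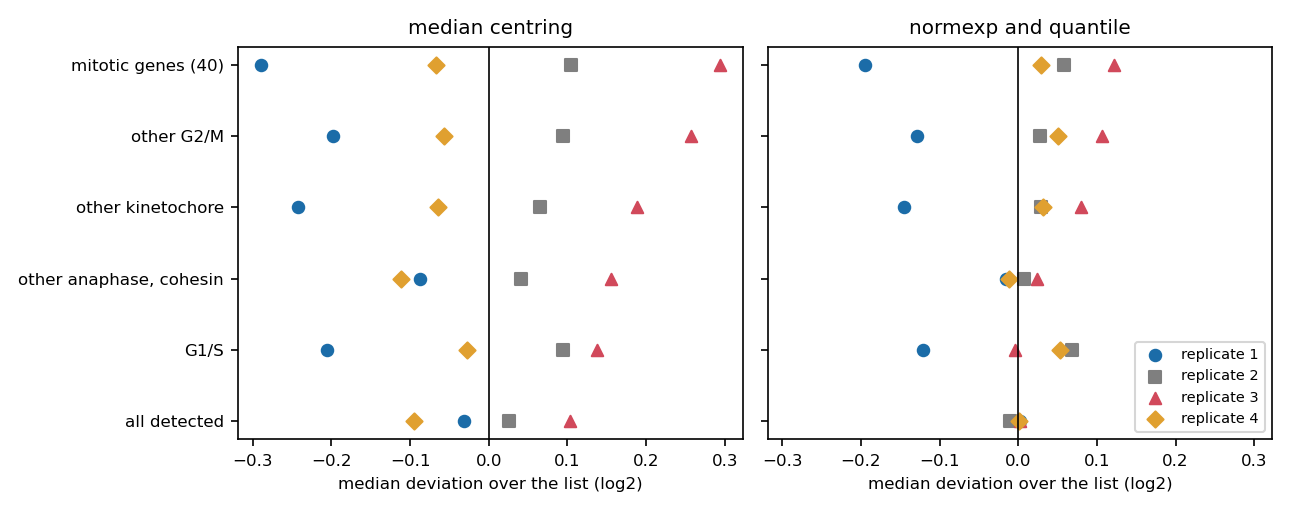
Median deviation of each array from the 4-array mean (x axis, log2) over the 40 mitotic genes, 4 further lists of cell cycle genes and all detected genes (y axis), with median centring on the left and with normexp and quantile normalization on the right. Replicate 1 lies at -0.29 for the mitotic genes and at -0.03 for all detected genes on the left, and at -0.20 for the mitotic genes on the right.

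Many of the 40 genes, but not all, also share letters in their promoters, which the choice by name did not use. RefSeq windows of GRCh38.p14, from 250 bases before to 50 after a transcript start, were at hand for 32 of the 40 genes, without CENPH, BUB3, TTK, AURKA, BIRC5, TPX2, UBE2C and CENPM. The core of the CHR was searched as TTTGAA or TTCGAA and the CCAAT box as CCAAT, each on both strands. The first window held a CHR core in 22 of 32 genes (68.8%), a CCAAT box in 23 (71.9%) and both in 17 (53.1%). Of the first windows of all 27305 genes with a window, 16.6%, 35.7% and 6.58% held them. The 150 bases before the start are printed in the direction of transcription for 7 genes that hold both, with the matches in capitals. CENPA, CDCA8, KIF23, INCENP and PRC1 shared the order of the arrays with spans from 1.48-fold to 1.63-fold, while the spans of PLK1 and ESPL1 were 1.25-fold and 1.15-fold. A match is only a run of letters and not evidence that a factor binds there.
CENPA promoter, chr2:26785906-26786055, plus strand: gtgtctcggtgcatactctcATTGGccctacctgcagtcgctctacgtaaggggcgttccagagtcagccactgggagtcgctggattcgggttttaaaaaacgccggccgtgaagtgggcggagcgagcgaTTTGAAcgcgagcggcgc
CDCA8 promoter, chr1:37692366-37692515, plus strand: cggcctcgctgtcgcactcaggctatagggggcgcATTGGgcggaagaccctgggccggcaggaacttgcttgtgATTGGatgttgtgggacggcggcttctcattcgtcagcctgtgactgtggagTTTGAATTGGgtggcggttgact
KIF23 promoter, chr15:69414199-69414348, plus strand: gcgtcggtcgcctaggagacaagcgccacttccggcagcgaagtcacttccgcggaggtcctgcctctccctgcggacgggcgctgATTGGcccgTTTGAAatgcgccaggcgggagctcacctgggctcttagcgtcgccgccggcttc
INCENP promoter, chr11:62123861-62124010, plus strand: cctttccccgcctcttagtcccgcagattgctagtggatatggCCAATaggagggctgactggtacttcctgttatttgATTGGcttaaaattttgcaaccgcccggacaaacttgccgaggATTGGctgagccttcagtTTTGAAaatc
PRC1 promoter, chr15:90994536-90994685, minus strand: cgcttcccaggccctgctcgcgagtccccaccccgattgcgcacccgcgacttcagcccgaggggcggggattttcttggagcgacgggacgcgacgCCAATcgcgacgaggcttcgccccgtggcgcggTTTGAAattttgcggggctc
PLK1 promoter, chr16:23678739-23678888, plus strand: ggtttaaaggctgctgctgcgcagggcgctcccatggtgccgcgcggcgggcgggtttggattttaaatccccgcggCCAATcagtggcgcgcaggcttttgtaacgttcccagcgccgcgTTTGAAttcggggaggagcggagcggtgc
ESPL1 promoter, chr12:53268149-53268298, plus strand: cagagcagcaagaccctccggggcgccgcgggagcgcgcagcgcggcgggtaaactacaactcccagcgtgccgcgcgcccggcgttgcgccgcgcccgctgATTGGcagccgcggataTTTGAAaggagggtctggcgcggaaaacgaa

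In CDCA8 the letters of the CHR core run into a CCAAT box on the other strand. Genes with both motifs therefore included some, such as ESPL1, that hardly differed between the arrays. Counted over the 32 mitotic genes with a window, 19 of 22 with a CHR core were lowest on replicate 1 and 6 of 10 without one. Among all detected genes with a window the shares were 38.5% of 1536 genes with the core and 31.9% of 8505 without, and 42.3% of the 640 genes with both motifs. Under quantile normalization these shares were 38.9%, 28.2% and 42.3%, and 18 of 22 and 7 of 10 of the mitotic genes were lowest on replicate 1. The difference between 22 and 10 genes is a count of a few genes and was not tested.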

How the data were processed

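The authors deposited 1 Agilent Feature Extraction (10.7.3.1) file per array, with background-subtracted intensity values on a linear scale, not normalized between arrays. The deposited files also hold p-values for spots against their background, not used here, and flags for outlying, saturated and well-above-background spots. The 4 arrays share 1 slide and 1 scan, and slide or scan effects could thus not be tested.

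Control spots and outlying spots (275 to 410 per array) were left out, the spots of a probe were averaged, signals at or below 0 (14.8% to 17.4% of spots) were dropped on the array concerned, and log2 values were centred on the array median and reduced to 1 value per gene, the median of its probes. Spots flagged only for their local background were kept, since the subtracted background was the fitted surface on every array. From 55.6% to 60.4% of spots were well above background, and the precision is limited by the 4 arrays. A gene was detected when 1 of its probes had more than 50% of its spots well above background on all 4 arrays. Spread is given as the SD (n = 4), the span and Dixon's ratio, and no p-value was computed, as only 1 group was analysed. All 40 genes are named. Values on every array are given for genes picked by function and for the 5 largest and 5 smallest SDs, and on the other lists for CCNB1, CDK1, FOXM1 and TOP2A, with up to 3 further genes of largest SD. One marker gene is not reported here. The genes and lists were chosen with earlier results of these data known.

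The alternatives were Agilent's processed signal relative to its 75th percentile, normexp (offset 50) with quantile normalization in limma 3.58.1, other filters on probes and spots, another centring, the mean over probes, and leaving out each replicate. Python 3.11.15, pandas 2.3.3, numpy 2.4.6, matplotlib 3.10.9 and R 4.3.3 were used. The steps were tested on simulated data.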

Additional observations from a re-analysis of the deposited data

How the results depend on the processing

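Across the alternatives that kept all 4 arrays, 29 to 36 of the genes were lowest on replicate 1 and 26 to 32 highest on replicate 3. The shares over all genes under the same settings were 24.6% to 48.3% and 36.1% to 51.0%. Both the highest counts, 36 and 32, and the highest shares came with centring on the median of all probes. The mean deviation on replicate 1 was negative in each of them. On replicate 4 its sign changed, from -0.07 to 0.03 with quantile normalization and 0.04 with the processed signal. Under quantile normalization 10 genes spanned more than 1.4-fold, the median SD was 0.18, the SD of the mean deviation over the 4 arrays was 0.12 in place of 0.22, and the mean deviation on replicate 1 was -0.17. Centring on the median of all probes moved it to -0.36, and there the share of all detected genes lowest on replicate 1 was 48.3%. Genes with 1 array apart numbered 1 with the processed signal and 5 with quantile normalization, against 1258 and 1198 of the 19689 detected genes. They numbered 3 with the centring on all probes and 2 when spots with an outlying local background were also left out, without a share over all genes. That last alternative was chosen after seeing the data, and under it NUF2 had no value on replicate 4. Leaving out each replicate in turn gave 11 to 30 genes spanning more than 1.4-fold (11 without replicate 1, against 36.7% of all detected genes, and 13 without replicate 3, against 21.6%), a median SD of 0.21 to 0.34 (without replicate 1, 0.21 for all detected genes too), an SD of the mean deviation of 0.16 to 0.27 and a mean deviation on replicate 1 of -0.29 to -0.19. The causes were not tested. No paired analysis was possible because only the bafilomycin A1 samples were analysed here, so no group shared their replicate numbers. Dim signals limit CENPI, CENPN and ANAPC1, each with 1 probe that came close to background on at least 1 array. They also limit PLK4 and CENPK, the genes with the largest spreads, which rest on 1 probe each. Its signals were 45.7 to 142.7 for PLK4 and 24.8 to 55.2 for CENPK, although well above background on all 4 arrays. The SPC24 probe with the shared order was dim as well, at 27.5 to 70.7.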
